A study of Mus musculus with 96 samples.

Results

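Enzymes of the pentose phosphate pathway and the cytosolic enzymes that make NADPH were followed here through 7 genes: Pgls, Pgd, Rpia, Taldo1, Tkt, Me1 and Idh1. They were taken by symbol from the 40202 genes listed in each count file. All 7 had a count in at least 1 kept cell, and 6 reached a mean of 5 counts per 1000000 (CPM) over both groups. Rpia lay just under that minimum, at 4.82 CPM.

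The libraries came from single cells of C10, an established mouse lung line that the labels call alveolar type II epithelial. One group of 48 cells was untreated (control) and 48 had been given RO-3306, sold as an inhibitor of the mitotic kinase CDK1, at a labelled 10 nM for 36 h. That dose is lower than is usual for this compound, and the files hold no measure of CDK1 inhibition. Both groups grew in the same serum-containing medium, and cells were sorted singly and sequenced after SMART-seq v4. In the nanoSPLITS method named in the title, each cell's lysate is shared between an RNA and a protein assay, so a library holds only part of a cell's RNA; the protein part was not analysed here. The labels name no separate cultures, so each treatment counts as 1 sample, no p-value was computed, and every interval (95%) covers counting error only.

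The pentose phosphate pathway branches from glycolysis at glucose 6-phosphate. Its oxidative steps, which include those of the lactonase PGLS and of PGD, yield NADPH and a pentose phosphate. Its reversible steps, run by RPIA, transketolase and transaldolase, make ribose phosphate for nucleotides and pass surplus carbon back to glycolysis. Malic enzyme 1 (ME1) and isocitrate dehydrogenase 1 (IDH1) make NADPH in the cytosol from malate and isocitrate. Cells spend NADPH on glutathione and thioredoxin recycling and on fatty acid and sterol synthesis, and alveolar type II cells make the lipids of surfactant with it. Several of these genes are known targets of NRF2, a transcription factor of the oxidant response that binds antioxidant response elements.

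Cells with at least 50000 counts and 1000 genes were kept, 29 control and 37 RO-3306 cells. Their totals ran from 59979 to 6457215 counts (median 1753427) in control and from 295005 to 5321880 (median 2234309) in RO-3306. A letter from A to D stands in each title, with no meaning given; the resulting sets, with 10, 8, 6 and 5 control and 10, 10, 11 and 6 RO-3306 cells, are used only to see whether a sign repeats. Levels are CPM of each group's summed counts, and log2 ratios are RO-3306 over control after adding 1 CPM to both. The 9374 genes that reached 5 CPM had a median log2 ratio of -0.22 (quartiles -0.98 and 0.43), and it came to -0.02 with TMM scaling. The alveolar type II label has little marker support: Sftpa1, Sftpc, Sftpd and Slc34a2 were at 0 in both groups, and the 9 markers summed to 23.5 and 27.7 CPM. The 7 mesenchymal markers summed to 5594 CPM in control against 2531 CPM in RO-3306. Epithelial markers summed to 1.78 and 0.978 CPM (Krt18 and Cldn4 at 0 in both), endothelial markers to 0.619 and 0.149 CPM, and macrophage markers to 58.5 and 61.2 CPM (Marco at 0 in both). None of the 7490 genes lying wholly inside other gene spans had a count in any kept cell. Whether a marker at 0 is one of them is not given here.

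Promoter sequences are shown for the gene with the most repeatable difference, Taldo1, and for Me1, which holds the letters TGACNNNGC, the core of the antioxidant response element, across its start site. They come from RefSeq (GRCm38.p6) and run from 250 bases before the start site to that site, or to the end of a match that crosses it. Capitals mark the match, and Taldo1 has none.
Taldo1: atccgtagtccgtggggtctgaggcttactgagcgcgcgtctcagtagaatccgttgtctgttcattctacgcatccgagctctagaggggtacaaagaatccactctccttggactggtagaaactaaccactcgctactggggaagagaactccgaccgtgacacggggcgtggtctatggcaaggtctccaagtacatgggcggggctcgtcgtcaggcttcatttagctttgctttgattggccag
Me1: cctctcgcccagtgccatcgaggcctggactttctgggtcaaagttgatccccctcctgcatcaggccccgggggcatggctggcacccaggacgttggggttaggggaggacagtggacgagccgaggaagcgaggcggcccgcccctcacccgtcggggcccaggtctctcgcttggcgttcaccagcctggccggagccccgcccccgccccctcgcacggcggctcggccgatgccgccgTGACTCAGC

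These stretches are chr7:141391910-141392159 on the plus strand for Taldo1 and chr9:86695912-86696164 on the minus strand for Me1. Me1 holds TGACTCAGC, whose first base lies at -6 from the start site. Windows of 300 bases (250 before to 50 after the start) were found for all 7 genes, 10 windows in all, and 2 of the 10 held a match. The other was in the second Pgd window (TGACATTGC, first base at 4 after the start). Of all 32851 mouse windows of this length, 12.4% held a match on either strand, and of 27025 genes 13.99% did, against 2 of these 7. A match is a description of letters, not of binding.

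Of the 6 genes of at least 5 CPM, 2 were past a 2-fold difference, both higher in RO-3306: Taldo1 and Idh1. Over all 9374 genes of at least 5 CPM, 12.2% were past it in that direction and 24.2% in the other, where none of the 6 lay. That split of 1141 higher and 2272 lower genes was 1455 and 1841 with TMM scaling, and Taldo1 (1.44) and Idh1 (1.34) remained past the line. Taldo1 alone was past it with the same sign in all 4 lettered sets, which held for 7.23% of all genes (6.43% in the lower direction). The median log2 ratio of the 7 genes with a count was 0.24. It was above 0 in each set, at 0.91, 0.10, 0.07 and 0.82 in A to D, beside -0.08, -0.26, 0.41 and 0.24 for all genes of at least 5 CPM, so that in set C the 7 lay below the rest.

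Among the oxidative enzymes, Pgls and Pgd were each seen in a larger share of RO-3306 than of control cells. So were 76.9% of all genes of at least 5 CPM. For Pgd the shares were 44.8% in control and 51.4% in RO-3306, a gap below the 10.6-point median over those genes. Neither Pgls nor Pgd had a 2-fold difference in summed level. Pgls (GRCm39, chromosome 8, 72044828 to 72048911, plus strand) encodes the lactonase of the oxidative branch. Its level per cell ran from 0 through a median of 35.4 to 317 CPM in control cells and from 0 through 79.0 to 330 CPM in RO-3306 cells. The ranges overlap almost wholly, and 27 of 37 RO-3306 cells were above the control median. Summed over cells, Pgls had 83.2 CPM in control (81.0 to 85.4) and 78.3 CPM in RO-3306 (76.5 to 80.1), a log2 ratio of -0.09. That sign is not settled: it was 0.12 with TMM scaling, and 0.34 when each cell had equal weight. The sets gave -0.06, 0.54, 1.65 and -1.18.

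Pgd (GRCm39, chromosome 4, 149234448 to 149251162, minus strand) encodes 6-phosphogluconate dehydrogenase, an NADPH-making step of the pathway. Its per-cell level ran from 0 through a median of 0 to 207 CPM in control and from 0 through 6.86 to 270.1 CPM in RO-3306. Only 2 RO-3306 cells, C11 and A2, were above the highest control cell. The summed level was 47.9 CPM in control (46.2 to 49.6) and 30.8 CPM in RO-3306 (29.7 to 31.98), a ratio of 0.644 (0.612 to 0.677) and a log2 ratio of -0.62. Pgd thus had the lowest ratio of the 7 in summed level, with -0.60 in set A, -1.39 in B, -0.83 in D and 0.07 in C. One control cell, B5, held 28.2% of the control counts. Without it the log2 ratio was -0.26, with equal weight per cell it was -0.04, and with cells thinned to 639000 reads before summing it was 0.07. With equal weight, and also after thinning, Rpia, Tkt and Me1 had lower values than Pgd. Without set C the Pgd log2 ratio was -1.13, past the 2-fold line, and without set B -0.29.

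Of the non-oxidative enzymes, Taldo1 was seen in the most cells. Its log2 ratio was above that of Idh1, the next of the 7, over all kept cells and below it with equal weight per cell (1.32 against 1.45). The equal-weight Idh1 value takes in RO-3306 cell C11, at 1413 CPM beside a mean of 152 CPM over the 37 cells. C11 was not left out on its own. Idh1 was also above Taldo1 after thinning (1.23 against 1.21), without set B (1.84 against 1.32) and without set D (1.54 against 1.26). Taldo1 was above Idh1 with TMM scaling (1.44 against 1.34), without set A (1.28 against 0.64) and without set C (1.10 against 0.64). The order of Taldo1 and Idh1 is thus not settled. Taldo1 (GRCm39, chromosome 7, 140972073 to 140982889, plus strand) encodes transaldolase, which moves a 3-carbon unit between sugar phosphates. Control cells ran from 0 through a median of 187 to 493 CPM, and RO-3306 cells from 10.3 through 507 to 781 CPM. The groups overlap, but 31 of 37 RO-3306 cells were above the control median and 19 were above the highest control cell. At an equal 639000 reads per cell the medians were 203 and 489 CPM, and 16 of 34 RO-3306 cells were above the highest of 25 control cells. All 37 RO-3306 cells had a count, as did 28 of 29 control cells, so the difference is one of level and not of presence.

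Summed, Taldo1 had 207 CPM in control (203 to 210.1) and 487 CPM in RO-3306 (482 to 491), a ratio of 2.36 (2.31 to 2.40) and a log2 ratio of 1.23. The sets gave 1.07, 1.10, 2.13 and 1.07, each past the 2-fold line. Set C stands out through its control cells, which summed to 119 CPM against 209 to 226 in the other sets; in RO-3306 the 4 sets lay between 441 and 525 CPM. The largest cell gave 12.6% of the control counts (B4) and 8.28% of the RO-3306 counts (C5); without either the log2 ratio was 1.28 and 1.19. Over 17 alternatives the log2 ratio stayed between 1.06 and 1.47. Taldo1 counts were fractional, from reads split among several sites, in 45.7% of the libraries that had any, which leaves its exact level uncertain; for the other 6 genes this share was between 8.11% and 47.2%.

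**Figure D1:**
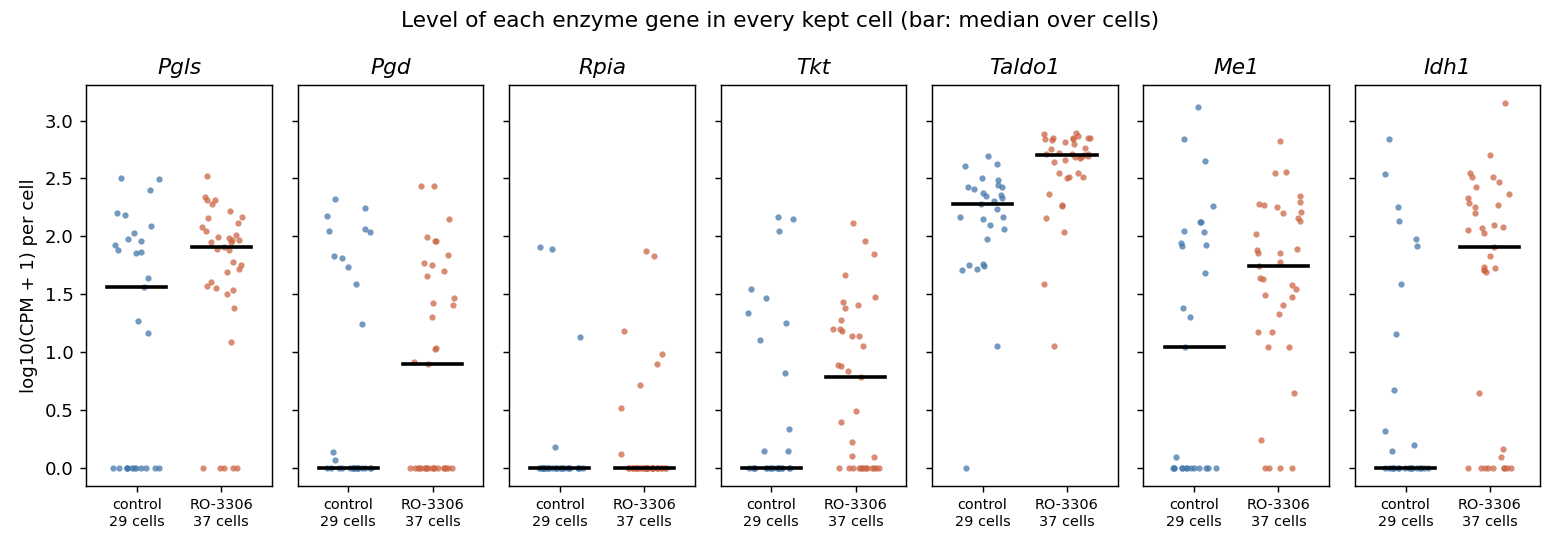
Level of each enzyme gene in every kept cell, on the y axis as log10(CPM + 1), for 29 control (blue) and 37 RO-3306 cells (orange). Bars are medians over cells; those of Taldo1 were 187 and 507 CPM, while each of the other 6 genes has cells at 0 in both groups.

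Tkt (GRCm39, chromosome 14, 30271088 to 30296681, plus strand) encodes transketolase, the thiamine-dependent partner of transaldolase. Its cells ran from 0 through a median of 0 to 145 CPM in control and from 0 through 5.13 to 129 CPM in RO-3306. No RO-3306 cell was above the highest control cell. The summed levels were 14.1 CPM (13.2 to 15.003) and 16.8 CPM (15.96 to 17.6), a log2 ratio of 0.24. The sets split evenly, at 0.81 and 0.82 in A and D and -0.18 and -0.43 in B and C. One RO-3306 cell, C5, held 30.9% of that group's counts, and without it the log2 ratio was -0.18. It was also below 0 with equal weight per cell (-0.20), after thinning (-0.15) and without set A (-0.02). Only the transaldolase transcript, of these partners, had the same sign in all 4 sets.

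Rpia (GRCm39, chromosome 6, 70742704 to 70769159, minus strand) encodes the isomerase that forms ribose 5-phosphate. It was seen in 4 of 29 control and 8 of 37 RO-3306 cells, and the per-cell median was 0 in both. Its summed level was 4.65 CPM (4.14 to 5.20) in control and 4.99 CPM (4.55 to 5.47) in RO-3306, with overlapping intervals. The RO-3306 cell B5 held 59.9% of its group's counts. Without that cell the log2 ratio went from 0.09 to -0.87, so no direction can be read. Its set values of 0.91, 0.60, 0.05 and 1.15 are all above 0, but control was at 0 in C and D, which fixes the sign there.

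The 2 cytosolic NADPH enzymes outside the pathway differed from each other in pattern. Idh1 (GRCm39, chromosome 1, 65197775 to 65225638, minus strand) was at 0 in most control cells. Its cells ran from 0 through a median of 0 to 696 CPM in control and from 0 through 80.5 to 1413 CPM in RO-3306. Counts were found in 12 of 29 control and 28 of 37 RO-3306 cells. Summed, it had 54.5 CPM (52.8 to 56.3) and 121 CPM (119 to 123), a ratio of 2.22 (2.14 to 2.30) and a log2 ratio of 1.13.

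The Idh1 difference was not shared by all sets. Set A gave 2.61, set B 0.10, set C 7.24 and set D -0.83. In set C control held 1 Idh1 count in 6 cells, so that value depends on the pseudocount. Leaving out set A or set C lowered the log2 ratio to 0.64 in either case, under the 2-fold line, and leaving out set B raised it to 1.84. Control cell B5 held 25.4% of the control counts, and without it the log2 ratio was 1.44. Without RO-3306 cell C10, which held 11.1% of that group's counts, it was 1.02.

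Me1 (GRCm39, chromosome 9, 86463416 to 86577967, minus strand) was seen in more RO-3306 cells, 33 of 37 against 16 of 29, at a summed level that differed little. Control cells ran from 0 through a median of 9.98 to 1312 CPM, and RO-3306 cells from 0 through 54.2 to 658 CPM. The highest control cell was thus above every RO-3306 cell, while 30 of 37 RO-3306 cells were above the control median. Summed, Me1 had 77.3 CPM (75.2 to 79.5) and 92.3 CPM (90.3 to 94.2), a log2 ratio of 0.25. Sets A and D gave 1.02 and 0.97, and sets B and C -1.19 and -0.45. With equal weight per cell the sign turned, to -0.23, and without set A it was -0.03. The equal-weight value takes in control cell A12, at 1312 CPM from only 232 Me1 counts. After thinning, which left out A12 among other cells of few reads, the log2 ratio was -0.04.

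**Figure D2:**
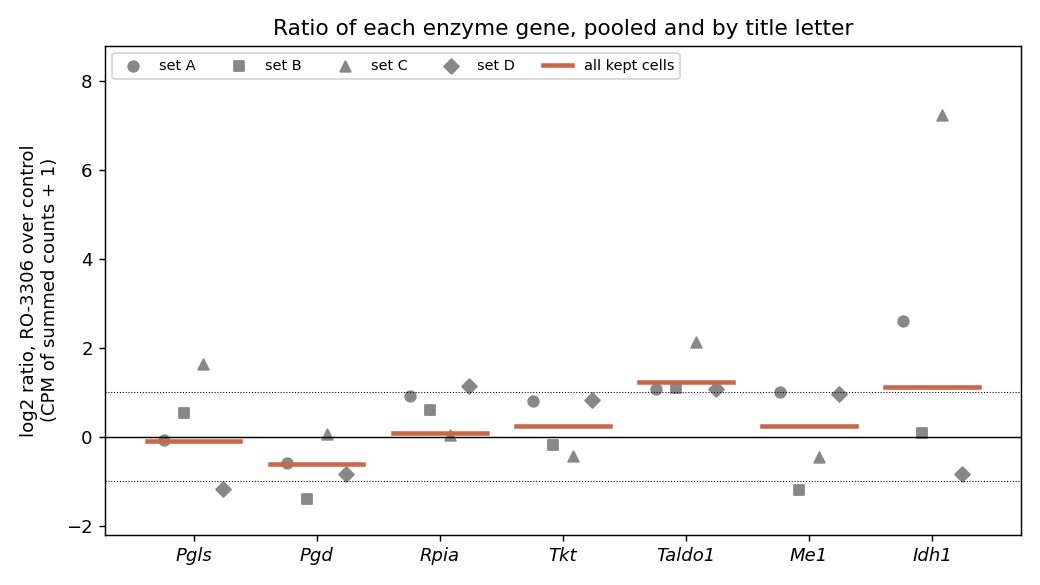
Log2 ratio of RO-3306 over control (y axis, counts summed per group, 1 CPM added) for each enzyme gene, over all kept cells (orange bars) and in each lettered set (grey symbols); dotted lines mark a 2-fold difference. The 4 Taldo1 symbols lie between 1.07 and 2.13, while those of Idh1 run from -0.83 to 7.24.

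Compared per length, Taldo1 was the most abundant in both groups. Counts cover whole gene spans, introns included, so division by mRNA length is approximate. In control the levels were 168 CPM per kb for Taldo1 and 93.1 for Pgls. Idh1 (23.7, 22.9 to 24.5), Me1 (23.5, 22.9 to 24.2) and Pgd (21.6, 20.8 to 22.4 CPM per kb) followed, with Idh1 and Me1 inside each other's counting interval. Tkt (4.36) and Rpia (2.54 CPM per kb) were lowest. In RO-3306 the levels per kb were 396 for Taldo1, 87.7 for Pgls, 52.5 for Idh1, 28.1 for Me1, 13.9 for Pgd, 5.21 for Tkt and 2.73 for Rpia, the same order with no overlapping intervals. Idh1 and Me1 thus differed beyond counting error in RO-3306 and not in control.

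The CPM summed over the 7 genes was 488 (483 to 494) in control and 831 (825 to 837) in RO-3306, a ratio of 1.70 (1.68 to 1.72) and a log2 ratio of 0.77. Taldo1 made up 42.3% of this sum in control and 58.6% in RO-3306. Without Taldo1 the sums were 282 and 344 CPM, a ratio of 1.22 (1.20 to 1.24). Taldo1 thus accounts for most of the difference in the sum.

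More of the 7 genes were seen together in RO-3306 cells, as holds for genes in general in these libraries. A median of 3 had a count in a control cell and 5 in an RO-3306 cell, and 4 and 5 at equal depth. Cells with 6 or 7 of them numbered 2 of 29 and 14 of 37. Over all genes of at least 5 CPM the median share of cells with a count was 44.8% in control and 62.2% in RO-3306, and 76.9% of genes had the larger share in RO-3306. That background remained at equal depth, at 40% and 55.9%.

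At equal depth (25 control and 34 RO-3306 cells) Idh1 had a count in 40% (21.1% to 61.3%) of control against 73.5% (55.6% to 87.1%) of RO-3306 cells. Me1 had 56% (34.9% to 75.6%) and 88.2% (72.5% to 96.7%). Pgls had 64% (42.5% to 82.0%) and 91.2% (76.3% to 98.1%). Each pair of exact binomial (Clopper-Pearson) intervals overlaps. Tkt had 32% and 58.8%, Pgd 44% and 52.9%, and Rpia 16% and 20.6%. Taldo1 was at 100% in both. The median difference over all genes of at least 5 CPM was 8.94 percentage points.

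**Figure D3:**
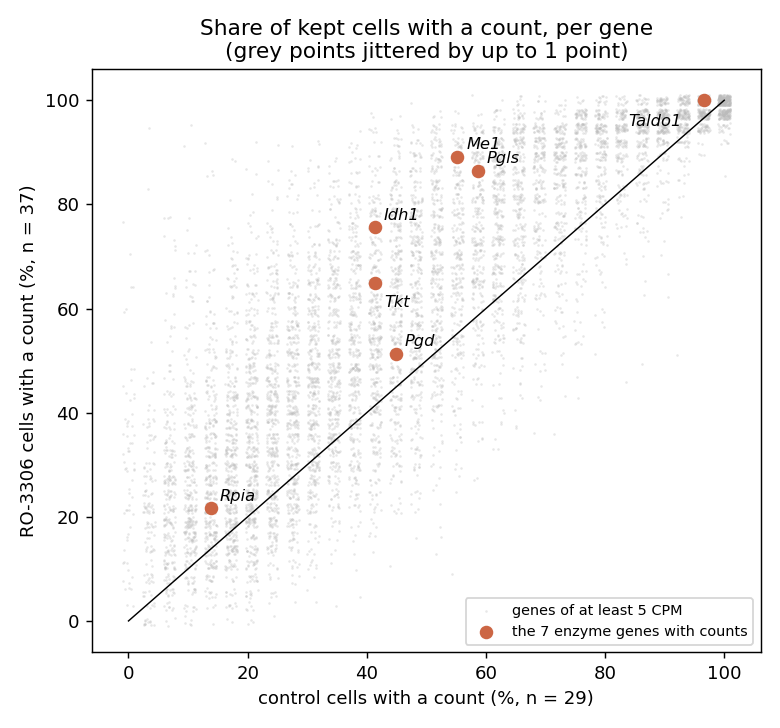
Percent of kept cells with a count in control (x axis, 29 cells) and RO-3306 (y axis, 37 cells) for the 7 enzyme genes (orange) among all genes of at least 5 CPM (grey, jittered); the line marks equal shares. All 7 lie above the line, as do 76.9% of all the genes, with Me1 at 55.2% and 89.2% and Pgd at 44.8% and 51.4%.

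Between cells of 1 group the 7 genes varied largely apart. Spearman correlations of thinned CPM over the 21 pairs ran from -0.18 to 0.45 (median 0.00) in 25 control cells and from -0.26 to 0.36 (median 0.08) in 34 RO-3306 cells. The highest were Pgls with Tkt in control and Pgd with Idh1 in RO-3306, and the lowest was Me1 with Idh1 in RO-3306. These are descriptions over cells of 1 sample each, and many of their values are 0. In unthinned CPM over all kept cells, the highest control cell was A12 for Me1, B12 for Idh1 and A10 for both Pgls and Tkt. A12 is not among the thinned cells. RO-3306 cell C11 was the highest of its group for Idh1, Pgd and Pgls in unthinned CPM. After thinning, A2 was highest for Pgd, at 280 CPM against 266 CPM in C11. Ranked by the mean of the within-group correlations with the summed level, over 2897 genes of at least 50 CPM seen in most cells of each group, by the ranking's own minimum, Mcm4 (0.53), Slc39a10 (0.47), Bmpr1a (0.45), Skap2 (0.43) and Laptm4a (0.39) were most alike. For each of these genes the correlation was higher in control than in RO-3306, at 0.69 and 0.37 for Mcm4 and 0.52 and 0.27 for Laptm4a. How high the top of such a ranking runs for unrelated genes was not tested. Mcm4, a subunit of the replicative helicase, had 202 CPM in control against 86.8 CPM in RO-3306, the opposite direction to Taldo1.

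**Figure D4:**
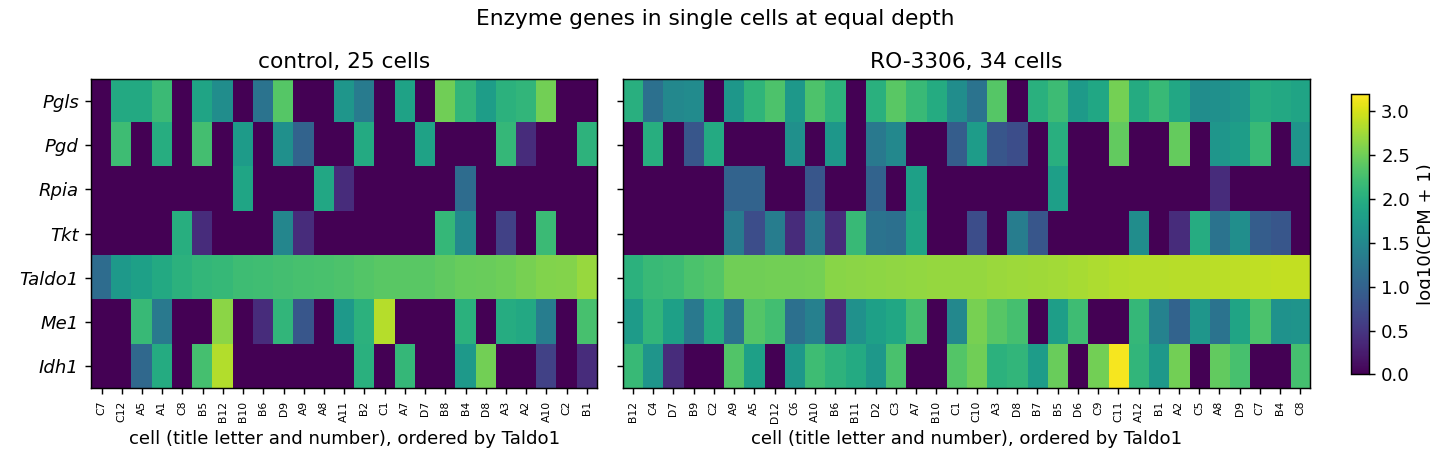
Level of each enzyme gene (rows) in each cell (columns, named by title letter and number) at 639000 reads per cell, coloured by log10(CPM + 1), for 25 control and 34 RO-3306 cells ordered by Taldo1. Taldo1 fills every column, while the other rows are patchy with no common order, as the correlations between -0.26 and 0.45 describe.

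Genes of related steps were counted from lists chosen with results of these data known, so their counts are descriptions and not independent support. Of 15 other pentose phosphate and ribose genes, 10 reached 5 CPM: none was past the 2-fold line upward (12.2% of all genes) and 4 were downward (24.2% of all genes), with none of these lower in all 4 sets. With TMM scaling, or without set A, B or D, 2 were past it downward. The 4 were H6pd (-1.28), Dera (-1.10), a deoxyribose phosphate aldolase, and Prps2 (-1.15) and Prpsap2 (-1.33), which act in making phosphoribosyl pyrophosphate. Their median log2 ratio was -0.77, below the -0.22 of all genes. Idnk, a gluconate kinase, was at 69.7 and 125 CPM, a log2 ratio of 0.83, the highest among those 10.

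Of 15 other sources of NADPH or NADP, 14 reached 5 CPM, with none past the line upward and 4 downward, a share near the 24.2% of all genes: Mthfd1, Aldh1l2, Glud1 and Nadk2. The median was -0.42, and none of the 4 was lower in all 4 sets. With equal weight per cell 1 was past the line downward and 2 upward. Mthfd1, of cytosolic folate metabolism, had the lowest ratio (37.6 and 0.959 CPM, log2 ratio -4.30), but was seen in only 6 control and 4 RO-3306 cells. The mitochondrial relatives of the cytosolic enzymes were mixed. Me2 was at 0.09 and Idh2, which carries out the Idh1 reaction in mitochondria, at -0.43, while Me3 was at 0.95, higher in all 4 sets but just short of the line, and past it with equal weight per cell (1.94).

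Of 21 genes listed as NADPH users, 18 reached 5 CPM, 5 were past the line upward (12.2% of all genes) and 1 downward (24.2% of all genes). The median of the 18 was 0.44. They include Cyb5r3 (0.43), whose enzyme mainly uses NADH. Of the 5 past the line upward, those higher in all 4 sets were Blvrb, Ptgr1, Akr1b7 and Gsr. Blvrb (biliverdin reductase B) had 112 CPM in control against 453 CPM in RO-3306, and its sets lay between 1.64 and 2.09. Ptgr1 (prostaglandin reductase 1) had 45.6 and 174 CPM. Gsr, glutathione reductase, stood at 91.4 and 188 CPM; its log2 ratio of 1.03 came to 0.98 with equal weight per cell. Akr1b7, an aldo-keto reductase, had no count in 29 control cells (3 counts in all of them would be 0.0454 CPM). It had 13.4 CPM summed over all 37 RO-3306 cells, 12 of which had a count. With control at 0, no set could come out lower for Akr1b7, and it reached the 5 CPM minimum through RO-3306 alone. Nqo1 had 49.5 and 193 CPM but was lower in set C, and with equal weight per cell its log2 ratio was 0.29. Fasn, the fatty acid synthase, was at -0.68.

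Genes used as NRF2 markers, leaving out the 7, gave 5 of 12 past the line upward (12.2% of all genes) and none downward (24.2%), with a median of 0.70; Nqo1, Txnrd1 and Gsr are also in the list of NADPH users. Of those 5, the ones higher in all 4 sets were Hmox1 (heme oxygenase 1, 22.4 and 125 CPM), Srxn1 (sulfiredoxin, 108 and 257 CPM) and Gsr. With equal weight per cell 2 of the 12 were past the line, Hmox1 and Srxn1. Nfe2l2, the gene of NRF2 itself, was at 102 and 91.0 CPM. The glucose entry and upper glycolysis list gave 0 upward and 3 downward of 13, the latter near the 24.2% of all genes (median -0.04), of which Pfkm, a phosphofructokinase subunit, was lower in all 4 sets (18.1 and 7.11 CPM); with equal weight per cell 1 was downward. The citrate, isocitrate and malate list gave none past the line in either direction of 12 (median -0.28), and 3 downward without set A.

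**Figure D5:**
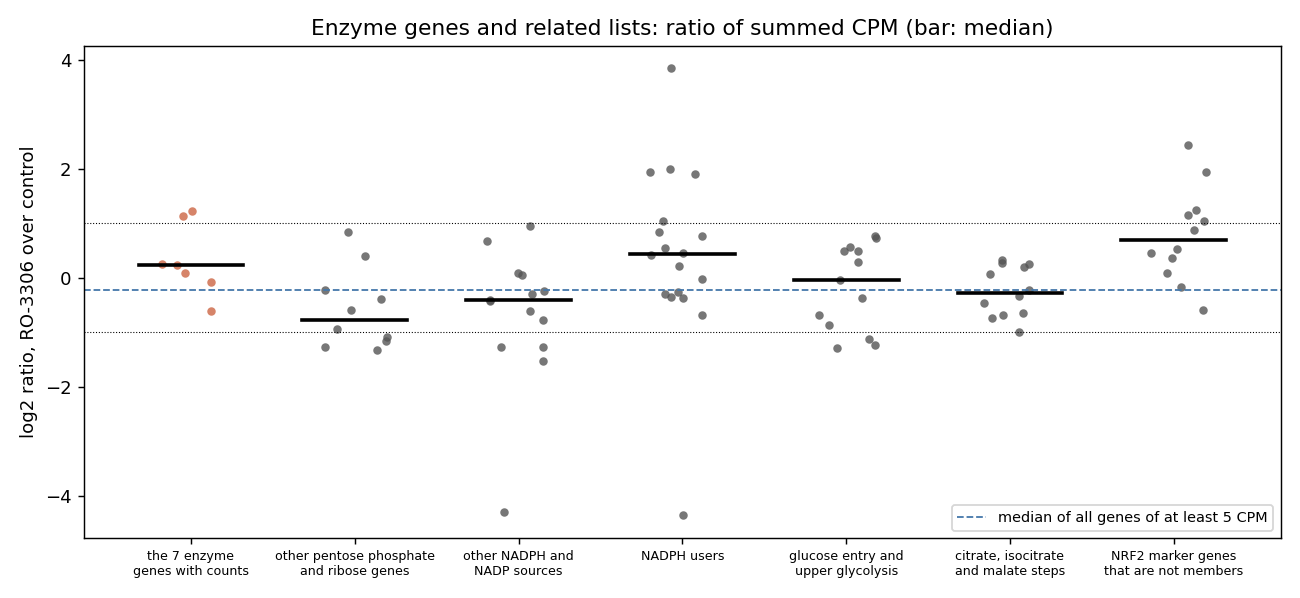
Ratio of RO-3306 to control on the log2 scale (y axis) for each of the 7 enzyme genes with counts (orange) and for the genes of at least 5 CPM in each related list (grey); bars are medians, dotted lines mark 2-fold and the dashed line is the -0.22 median of all genes. The medians run from -0.77 for the other pentose phosphate and ribose genes to 0.70 for the NRF2 markers, with the 7 enzyme genes at 0.24.

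All 7 mesenchymal markers had counts in both groups, and their sum ran from 1329 to 11354 CPM over control cells and from 1297 to 13886 CPM over RO-3306 cells. Both this sum and the share of cells in which genes were seen moved with the groups; their part in the Taldo1 and Idh1 differences was not tested. The share of mitochondrially encoded counts had a median of 3.40% in control and 4.42% in RO-3306 cells, with 1 kept RO-3306 cell, B3, at 56.0%. Leaving out cells above 20% gave log2 ratios of 1.24 for Taldo1 and 1.14 for Idh1.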

How the data were processed

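Single-cell RNA was measured in 96 libraries, and the deposited expected counts come from featureCounts 2.0.3, run by the authors on GRCm39 with its RefSeq annotation, per the file headers. Per those headers, reads were counted over whole gene spans, reads placed at several sites were split into fractions, and no strand option was set. STAR and FastQC are named in the submitters' processing notes, with settings not given in the sources used here. Without molecular identifiers, PCR copies are counted too.

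The genes and lists were chosen with earlier results of these data known. Counts of kept cells were summed per group and scaled to CPM; fractional counts were rounded for intervals (exact Poisson, Clopper-Pearson, and exact conditional binomial for ratios) and for thinning to 639000 reads. All 7 genes were described, and 1 more gene of the selection and 1 of a list are not reported here; list genes are named where past the fold and of one sign in all 4 sets, at most 6 a list, and others were chosen after their values were seen. The 5 most alike genes follow a fixed ranking. No count test was run, since no replicate culture is named; TMM factors (edgeR 4.0.16) and size factors (DESeq2 1.42.0), computed with R 4.3.3, served as alternatives. The rest used Python 3.11.15, numpy 2.4.6, pandas 2.3.3 and scipy 1.17.1. Of these steps only the log2 ratio of summed CPM was tested on simulated data. mRNA lengths came by symbol from GENCODE M21, and promoters from RefSeq on GRCm38.p6, an older build than that of the files. No 2 kept libraries were identical. No doublet caller was run, as each library is 1 sorted cell.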

Additional observations from a re-analysis of the deposited data

Results flagged for a closer look

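The libraries that missed the minimum of counts or of genes held a Taldo1 signal in 1 group. In the 11 left-out RO-3306 libraries Taldo1 had 126 CPM (106 to 148), from 146.5 counts in 4 libraries. In the 19 left-out control libraries it had 2.93 CPM (0.0742 to 16.3), from 1 count of 341166. Of the RO-3306 counts, 130.5 came from 1 library, D10, which had 63235 counts but 743 genes. Another left-out RO-3306 library held 773537 of the group's 1162603 counts of all genes. The 126 CPM thus depends mostly on these libraries and does not describe a typical left-out library. The other 6 enzyme genes had at most 3 counts each in either left-out group.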

How the results depend on the processing

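No paired analysis was possible because the labels name no culture or donor and each treatment is 1 sample, so title numbers pair nothing. The median log2 ratio of the 7 genes (0.24) was 0.44 with TMM, 0.46 with DESeq2 size factors, -0.043 with equal weight per cell and 0.071 after thinning. It was -0.016, 0.47 and 0.37 without sets A, B and C, and 0.57 relative to the median of genes with similar mRNA length, an alternative chosen after seeing the data. It thus has no settled sign. The log2 ratio of the summed CPM (0.77) stayed above 0 in each alternative. It was 0.98 with TMM, 1.001 with DESeq2 size factors, 0.79 without mitochondrial genes in the total, 0.82 with equal weight per cell and 0.82 after thinning. Without sets A, B, C and D it was 0.70, 0.90, 0.63 and 0.84. Without the cell with the most counts of the 7 genes it was 0.79 (control) and 0.73 (RO-3306). The causes were not tested. Taldo1 and Idh1 were above 0 in all 17 alternatives, Idh1 between 0.64 and 1.84; Pgls was above 0 in 7 of 17 and Me1 in 14. Of 369 recomputed values 223 stayed within their limits and 146 moved. A reversed sign was looked for only in Taldo1 and in the summed CPM, where 0 were found. Sign changes of the other genes and of the median of the 7 are counted as moved or, where small, as within limits. Without a CPM minimum 18561 genes entered and 2339 were past the fold upward, against 1141, and 3206 downward, against 2272. The NRF2 markers past the fold numbered 2 with equal weight per cell and 3 without set A, against 5.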
